A study of Rattus norvegicus with 12 samples.

Results

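The array used here holds probes for circular RNA beside probes of another class, and 436 of the 3046 circular RNA probes share a stretch of sequence with a probe of that other class. The members were found from the probe sequences alone. A member is a 60-base probe whose name starts with RNO_CIRCpedia (CIRCpedia is a catalogue of circular RNAs) and which has at least 20 consecutive bases in common, on the same strand, with a probe whose name starts with rclstr. They are 14.3% of the CIRCpedia probes. The array held 60148 distinct probes in all, and 57102 of them were rclstr probes. The files do not say what kind of RNA an rclstr probe reports and name no gene for any probe.

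The samples were 12 rat brain RNAs, each on its own one-colour array, with 4 samples in each of 3 groups. Control samples are labelled normal. Model samples came from rats in which the middle cerebral artery had been embolized, which models ischaemic stroke. BHD samples came from rats of the same model treated with Buyang Huanwu Decoction, a Chinese remedy made from several herbs. Model and BHD samples were both taken at 7 days, and the dose of the decoction is not given in the sources used here. The rats are labelled male and neither strain nor age is named. The tissue field reads brain, whereas 10 of the 12 sample descriptions name the hippocampus and the other 2 are empty, and the design text applies the embolization to all groups although the control is labelled normal. No tissue marker could be checked without gene names. The control arrays filled row 1 and the model arrays row 2 of slide 1, and the BHD arrays filled row 1 of slide 2. Control and model therefore cannot be told apart from slide row, and BHD cannot be told apart from slide.

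Circular RNAs form when the end of an exon is spliced back to the start of the same or an earlier exon, which closes the RNA into a loop. A probe laid across that joint has one arm from each exon end. The linear RNA of the same gene can contain either arm, but not both side by side in that order, so a probe within the linear RNA can share one arm with the joint probe. Circular RNAs are abundant in brain, where many come from genes that also make messenger RNA. Loops have no poly(A) tail, and the labelling reaction here was started from a T16N2 primer, which pairs with runs of A.

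The sequences show how members and partners overlap. Capitals mark the longest run of bases that the 2 probes share. The first pair has the longest run of all, 49 bases, which starts at base 1 of the member.
RNO_CIRCpedia_394_0_20: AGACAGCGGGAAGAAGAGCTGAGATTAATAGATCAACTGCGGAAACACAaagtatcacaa
rclstr_23858_1799_11: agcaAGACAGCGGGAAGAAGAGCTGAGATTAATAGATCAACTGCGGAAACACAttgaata
The next member has a partner on each arm, and its mean signal lay further below both of them in the model than in the other groups. It is written with the 33 bases that it shares with the first partner in capitals, bases 28 to 60. The second partner shares bases 6 to 29 of the member.
RNO_CIRCpedia_5686_16_14: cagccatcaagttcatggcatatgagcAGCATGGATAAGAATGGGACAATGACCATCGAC
rclstr_49505_102_14: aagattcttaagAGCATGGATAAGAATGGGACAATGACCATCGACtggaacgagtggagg
rclstr_10886_1678_13: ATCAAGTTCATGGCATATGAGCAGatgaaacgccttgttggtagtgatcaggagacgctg
These 2 members share the same 20 bases with 1 partner, which was lowest in BHD samples.
RNO_CIRCpedia_6984_14_1017: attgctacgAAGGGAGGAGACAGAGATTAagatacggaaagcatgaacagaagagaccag
RNO_CIRCpedia_3406_7_22: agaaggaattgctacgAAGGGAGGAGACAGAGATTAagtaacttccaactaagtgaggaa
rclstr_36757_992_25: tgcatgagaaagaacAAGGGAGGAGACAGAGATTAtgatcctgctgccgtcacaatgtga
The following members rose in BHD samples while their partners did not pass the test. In the last of these pairs the member ends inside the partner, so that the probes are shifted windows with no mismatch at the edge of the run.
RNO_CIRCpedia_9127_16_11: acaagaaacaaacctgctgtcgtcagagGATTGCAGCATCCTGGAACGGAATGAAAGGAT
rclstr_61934_45_18: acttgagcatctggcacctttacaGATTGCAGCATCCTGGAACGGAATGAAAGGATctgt
RNO_CIRCpedia_6742_16_11: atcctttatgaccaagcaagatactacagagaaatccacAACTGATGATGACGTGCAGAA
rclstr_2909_709_7: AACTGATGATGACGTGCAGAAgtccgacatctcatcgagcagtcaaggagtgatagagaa
The next pair moved in opposite directions, and the pair after it fell together.
RNO_CIRCpedia_408_16_7: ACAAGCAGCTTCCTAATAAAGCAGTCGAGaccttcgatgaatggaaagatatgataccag
rclstr_4290_2323_9: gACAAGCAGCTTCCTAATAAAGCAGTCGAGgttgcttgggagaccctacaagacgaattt
RNO_CIRCpedia_3457_0_12: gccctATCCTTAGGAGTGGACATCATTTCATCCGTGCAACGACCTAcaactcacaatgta
rclstr_3504_2779_6: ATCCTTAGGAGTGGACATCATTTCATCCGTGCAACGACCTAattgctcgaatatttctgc

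The 436 members had 396 distinct rclstr partners and formed 464 pairs. One partner was found for 408 members and 2 partners for the other 28. A partner could serve several members: 51 partners were shared by 2 members and 8 by more, up to 4, so pairs are not independent of each other. The shared run was 20 to 49 bases long, with a median of 31, and it was at least 30 bases in 261 pairs. No member shared all 60 bases. At the edge of the rule, 18 members had a longest run of exactly 20 bases, and 16 CIRCpedia probes outside it had one of 19.

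In 343 pairs both probes went on past at least one end of the run with bases that differ (split pairs). The other 121 pairs were shifted windows of one sequence. The end of the run followed the second number in the member's name. Where that number was 0, the run of a pair that diverged on the right ended at a median of base 45 of the member (61 pairs). Where it was 16, it ended at a median of base 29 (28 pairs). If a break is placed after base 45 minus that number, no run in the 464 pairs crossed it by more than 5 bases, and 299 did not cross it at all. This placing was read from the sequences, since no source used here explains the names. By it each partner shared one arm of the member only: the left arm in 280 pairs and the right arm in 184. Of the 28 members with 2 partners, 13 had one partner on each arm.

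RefSeq start-site windows (assembly GRCr8, 250 bases before to 50 after the start) held at least 30 bases of 3 members and 2 partners on the same strand. RNO_CIRCpedia_9823_15_17 and its partner rclstr_47374_380_22 both matched St3gal5, which makes the ganglioside GM3. RNO_CIRCpedia_8914_16_20 matched Dennd1b, a regulator of membrane traffic, and was not bright enough to be tested. RNO_CIRCpedia_8455_0_15 matched LOC134484079 over 47 bases, and the partner rclstr_25216_450_12 matched Rnf169 over 51. Members not listed here had no such match.

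A level here is the log2 signal minus that of the array's own 75th percentile, so that 1 unit is a 2-fold difference in signal. To be tested, a probe had to be well above background on all arrays of some group. That held for 421 members, 391 partners and 444 pairs, and 15 members were not tested. On all 12 arrays 414 members were well above background, and 6 members were so on none. The tested members had a median level of -0.92 and ranged from -6.04 to 6.82, and the tested partners had a median of -0.20.

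Members were usually dimmer than their partners. The member had the lower mean signal in 339 of 444 pairs (76.4%), with a median member minus partner gap of -0.44 and a range from -9.29 to 4.92. The gap was under 1 unit in 266 pairs, whereas in 70 pairs the member was dimmer by over 2 units and in 11 it was brighter by over 2. Probe brightness depends on base sequence as well as on RNA, so a gap is not a ratio of circular to linear RNA. GC content was 40% to 46.7% in both classes and lower in the member in 182 pairs. The gap was steady between arrays of a group, with a median within-group SD of 0.104. It is the change of that gap between groups that was tested below, and any factor that scales a whole array cancels in it.

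Signal was even across the arrays: 73.2% to 77.3% of probes were well above background, and the 75th percentile of the signal was 396.8 to 451.9 units. Across probes, which are not independent, the median correlation of an array with the rest of its group was 0.986 for BHD replicate 2 and 0.989 to 0.992 for the other 11 arrays.

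The first comparison asked how the model differed from normal brain. No member passed the test at an adjusted p under 0.05 (limma, Benjamini-Hochberg over all 44719 tested probes), and 59 of 421 had an unadjusted p under 0.05. Over the whole array 0.047% of probes were called (0.0224% higher and 0.0246% lower). With arrays centred on spike-in control probes instead, a setting chosen after seeing the data that put the median change of all probes at 0.18, 15 members were called, 12 of them higher. Leaving out control replicate 1 or BHD replicate 2 gave 1 called member. Members and partners mostly moved the same way. The sign of the change agreed in 79.1% of 444 pairs, and the changes of member and partner correlated at r = 0.57 across pairs, which share their arrays. The median size of the difference between the 2 changes was 0.058. Only 2 of 444 pairs were called for a difference of changes (0.177% of all 2259 pairs of probes on the array that share at least 20 bases were called), and both belonged to 1 member.

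That member was RNO_CIRCpedia_5686_16_14. Its levels were -4.74, -4.03, -4.05 and -4.05 in control, -5.41, -5.59, -5.70 and -5.05 in model, and -4.64, -4.06, -4.41 and -4.15 in BHD samples. All 4 model arrays lay below every control and BHD array, and control and BHD overlapped. Its partner rclstr_49505_102_14, on the right arm, stayed within -3.16 to -2.77 in control, -3.09 to -2.80 in model and -2.91 to -2.80 in BHD. The left-arm partner rclstr_10886_1678_13 likewise lay at -1.93 ± 0.07 (SD, n = 4), -1.86 ± 0.12 and -1.88 ± 0.11. Neither partner passed the test in any comparison. Relative to the right-arm partner the member was lower in the model by 1.233 (difference of changes -1.233 ± 0.188 SE, limma adjusted p = 0.036), and relative to the left-arm partner the difference was -1.285 ± 0.199 (adjusted p = 0.036). The member's own change of -1.221 ± 0.196 did not pass (adjusted p = 0.054). From model to BHD it rose by 1.126 ± 0.196 (adjusted p = 0.013), and it rose against both partners, by 1.026 ± 0.188 (adjusted p = 0.00677) and 1.138 ± 0.199 (adjusted p = 0.00524). The probe was near background: it was well above background on all control and BHD arrays but on only 1 of 4 model arrays. It therefore entered the test only through the groups where it was high, so these calls are not support for a difference. Both calls against the partners in the model were lost without BHD replicate 2 (adjusted p = 0.0502 and 0.0573). They were also lost without control replicate 2, 3 or 4, without model replicate 1, 2 or 3 and without BHD replicate 3 or 4 (adjusted p up to 0.149), in a fit of control and model arrays alone (0.0876 and 0.0881) and with normexp, a background correction that adds 50 units to every signal (differences of -0.26 and -0.29, adjusted p = 0.0893 for both). With normexp its rise in BHD was 0.25 and its call was lost as well (adjusted p = 0.0825), as were those against both partners (0.0891 and 0.0581).

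The second comparison asked how BHD samples differed from the untreated model. Of 421 members 20 were called, 16 higher and 4 lower in BHD, with changes between -0.519 and 1.126. Members were called in 4.75% of cases. Over all probes 3.19% were called (0.691% higher and 2.5% lower), and among CIRCpedia probes with no rclstr match 3.09% (59 higher, 18 lower). Of the partners 2 of 391 were called, both lower. With quantile normalization 19 of 21 called members were higher, and with spike-in centring 13 of 20. The count of 20 fell to 9 when only BHD and model arrays were fitted. It was 8 without BHD replicate 3, 10 without model replicate 1, 11 without model replicate 3 or BHD replicate 1, 12 without model replicate 2, 13 without model replicate 4 and 15 without BHD replicate 2. A probe that is above background only in the group where it is high enters the test through that group. With members counted only if well above background on all 12 arrays, a setting added after seeing the data, 17 of 414 were called.

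The 20 called members made 23 tested pairs with their partners, and in none of these was the partner called. Of all tested partners 0.512% were. In 14 of 23 the partner's change had the member's sign, against 64% of all 444 pairs. The difference of changes itself was called in 16 of 23, against 12.2% of all 444 pairs. These 23 pairs were picked by the member's own call, and the difference contains that same change. The 16 calls are therefore not separate support for a divergence.

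RNO_CIRCpedia_9127_16_11 was low in the model only. Its levels were -3.02, -2.64, -2.73 and -2.77 in control, -3.22, -3.33, -3.43 and -3.66 in model, and -2.82, -2.48, -2.69 and -2.92 in BHD, so that the model arrays lay below both other groups. It rose by 0.682 ± 0.124 from model to BHD (limma adjusted p = 0.0156; 0.293 with normexp), and its lower level in the model than in control did not pass (-0.620 ± 0.124, adjusted p = 0.0934). The partner rclstr_61934_45_18 overlapped between groups, at 0.573 ± 0.155, 0.244 ± 0.194 and 0.295 ± 0.154 (SD, n = 4). The pair differed in its change from model to BHD by 0.631 ± 0.085 (adjusted p = 0.00105).

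RNO_CIRCpedia_408_16_7 rose while its partner fell in one of the comparisons. The member lay at -3.16, -3.29, -3.60 and -3.31 in control, -3.39, -3.44, -3.71 and -3.48 in model, and -3.07, -2.82, -3.02 and -2.91 in BHD, where every array was above the others. The partner rclstr_4290_2323_9, far brighter, lay at 2.19, 2.29, 2.34 and 2.22, then 2.00, 2.04, 1.78 and 1.79, then 1.83, 1.93, 1.85 and 1.66. Its control arrays were above all model and BHD arrays. The member rose by 0.546 ± 0.107 over the model (limma adjusted p = 0.0204, and 0.0508 without model replicate 3; the rise was 0.250 with normexp) and by 0.383 ± 0.107 over control (adjusted p = 0.0428). Against control the partner fell by 0.442 (adjusted p = 0.0112), whereas its change of -0.086 from the model did not pass. The difference of changes was 0.632 ± 0.118 against the model (adjusted p = 0.00737) and 0.825 ± 0.118 against control (adjusted p = 0.00174).

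RNO_CIRCpedia_6984_14_1017 was seen above background in BHD samples only. It was well above background on all 4 BHD arrays, at -5.02, -4.79, -5.18 and -4.69, and on no control or model array. Its mean signal was at least 1.62-fold that in the model and at least 1.75-fold that in control. For these bounds the dim side is set at the lowest signal well above background on each array. They compare group means and make no allowance for the spread between arrays. The member entered the test only through the BHD arrays, so its calls in both comparisons are not support for a difference. With normexp the rises were 0.135 over the model and 0.182 over control, and both calls were lost (limma adjusted p = 0.234 and 0.0584). Its partner rclstr_36757_992_25 was lowest in BHD. It lay at -4.38, -4.84, -4.60 and -4.42 in control, -4.74, -5.08, -4.51 and -4.52 in model, and -5.05, -6.10, -5.37 and -5.55 in BHD, where 2 of 4 arrays were well above background. The partner's change from control to BHD was -0.955 ± 0.208 (adjusted p = 0.0174; -0.181 with normexp), and the one from model to BHD did not pass (-0.804 ± 0.208, adjusted p = 0.0632). BHD replicate 2 was its lowest array. Without that array the changes were -0.761 (adjusted p = 0.0212) and -0.610 (0.0958), and the change from the model passed without BHD replicate 1 (0.044) and with spike-in centring (0.048). RNO_CIRCpedia_3406_7_22, which shares the same 20 bases, kept to -3.44 ± 0.25, -3.18 ± 0.22 and -3.27 ± 0.13 (SD, n = 4). It differed from the partner in its change from control to BHD by 1.129 ± 0.238 (adjusted p = 0.0133; 0.256 with normexp), and its own change of 0.173 did not pass. That partner entered the test only through control or model arrays, where it was higher. Its call and that of this pair are therefore not support for a difference. For RNO_CIRCpedia_6984_14_1017 itself no difference from the partner is given, because the member was not well above background in control or model.

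The remaining named rises over the model were less steady when single arrays were left out. RNO_CIRCpedia_6742_16_11 lay at -2.93 ± 0.20, -2.84 ± 0.15 and -2.27 ± 0.19 (SD, n = 4) in control, model and BHD, and every BHD array was above the rest. It rose by 0.575 ± 0.124 over the model (limma adjusted p = 0.0327), a call lost without any one of model replicates 1, 3 and 4 and BHD replicates 1, 2 and 3 (adjusted p of 0.0612 to 0.0917) and with normexp (0.0563). The call was also lost with no filter on dim probes (0.0545) and in a fit of BHD and model arrays alone (0.0539). The member rose by 0.659 ± 0.124 over control (adjusted p = 0.00984). Its partner rclstr_2909_709_7 was 1.76 ± 0.06, 1.74 ± 0.18 and 1.71 ± 0.16 and overlapped between groups. The pair differed by 0.610 ± 0.084 against the model (adjusted p = 0.00122). RNO_CIRCpedia_6341_16_14 went from -3.25 ± 0.18 in the model to -2.62 ± 0.21 in BHD, with no overlap (0.623 ± 0.126, adjusted p = 0.0242). That call was lost without model replicate 2 or 3 or BHD replicate 1, 2 or 3 (adjusted p of 0.0533 to 0.0701). A fit of BHD and model arrays alone lost it as well (0.061). One partner, rclstr_6328_1095_10, had a mean of -0.35 in both groups, and the other, rclstr_6109_1242_10, went from -2.07 to -2.01. RNO_CIRCpedia_8516_16_6 was well above background on no model array and on all BHD arrays, where its mean was at least 1.54-fold that in the model. That bound makes no allowance for the spread between arrays. The change of this member was 0.122 with normexp. It too entered the test only through the BHD arrays, and its call (adjusted p = 0.0365) was lost with normexp (0.273), with no filter on dim probes (0.06), with trend and robust variance (0.0913) and without any one of control replicate 1, model replicates 1, 3 and 4 and BHD replicates 1, 2 and 3 (adjusted p of 0.0501 to 0.1). Its partner rclstr_2062_3047_27 overlapped between model and BHD at -1.41 ± 0.16 and -1.25 ± 0.11.

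Members and partners diverged in part of the pairs. Of 444 member and partner pairs 54 were called for a difference of changes, 44 with the member higher in BHD relative to the partner and 10 with it lower. That is 12.2% of the pairs, against 8.63% of all 2259 overlapping pairs on the array. Pairs of 2 CIRCpedia probes were called in 14.5% and pairs of 2 rclstr probes in 2.85%. The called differences had a median size of 0.336, and 8 of 54 exceeded 1.5-fold, RNO_CIRCpedia_6984_14_1017 among them. When both probes had to exceed background on each of the 12 arrays, 51 pairs were called. In 36 of 54 neither probe was called alone, in 16 only the member was and in 2 only the partner. Without BHD replicate 2 there were 40, of which 36 had the member higher, and with normexp 83, of which 58 did.

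The third comparison set BHD against normal brain. Of 421 members 55 were called (13.1%), 30 higher and 25 lower. All probes were called in 10.7% (3.85% higher and 6.89% lower), and CIRCpedia probes with no rclstr match in 8.58%. The split depended on scaling: with quantile normalization 39 of 58 called members were higher, and with spike-in centring 52 of 60. The count was 31 without control replicate 2 or without BHD replicate 1, 29 without control replicate 3 or without BHD replicate 3, 35 without control replicate 4 and 63 without BHD replicate 2. Among the 414 members well above background on all 12 arrays it was 53. This comparison shares its arrays with the 2 before it. Of 391 partners 25 were called, 6 higher and 19 lower.

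Some members moved together with their partners. The 55 called members made 61 tested pairs, and the partner was called as well in 18, in the same direction in 16. The largest fall was that of RNO_CIRCpedia_3457_0_12, which lay at 0.04, 0.51, -0.03 and -0.17 in control, -0.35, -0.55, -0.52 and -0.64 in model, and -0.94, -0.87, -1.01 and -1.11 in BHD. No group overlapped another. Its partner rclstr_3504_2779_6, which shares 41 bases with it, 40 of them on its left arm, followed at 0.24, 0.68, 0.11 and 0.01, then -0.20, -0.37, -0.43 and -0.51, then -0.75, -0.58, -0.74 and -0.94. The groups of the partner did not overlap either. From control to BHD the member's change was -1.068 ± 0.132 (limma adjusted p = 0.00183) and the partner's -1.011 ± 0.139 (adjusted p = 0.00269), with a difference between them of -0.057 ± 0.036 (adjusted p = 0.396). The changes from control to model were -0.603 and -0.637 and did not pass (adjusted p = 0.103 for both).

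RNO_CIRCpedia_3631_10_6 showed a partner that fell without its member. The member lay at -0.69 ± 0.11, -0.77 ± 0.14 and -0.83 ± 0.19 (SD, n = 4) with overlapping groups, and its change of -0.137 from control to BHD did not pass. The partner rclstr_40660_516_7 was at -1.39, -1.06, -1.04 and -0.90 in control, -1.40, -1.45, -1.48 and -1.86 in model, and -2.13, -1.99, -1.98 and -1.98 in BHD. It fell by 0.925 on the log2 scale from control to BHD (limma adjusted p = 0.00229), and no BHD array overlapped another group. The difference of changes was 0.788 ± 0.087 (adjusted p = 0.000562).

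Of the other named members, 5 were called higher in BHD than in control with partners that did not pass the test. RNO_CIRCpedia_9396_16_11 went from -1.73 ± 0.11 to -1.09 ± 0.17 (0.648 ± 0.106, limma adjusted p = 0.00555), and its partner rclstr_11929_2720_8 from -0.40 ± 0.07 to -0.06 ± 0.10, which did not pass (adjusted p = 0.06) but did in 5 of 22 other settings (0.0191 without model replicate 3 to 0.0492). RNO_CIRCpedia_3147_16_14 rose by 0.645 ± 0.160 (adjusted p = 0.0287), a call lost without control replicate 2, 3 or 4 or BHD replicate 3 (0.0615 to 0.0704). BHD replicate 2 was its highest array at -0.08, and also that of its partner rclstr_9009_464_12 at 3.36. Without that array the member's rise was 0.488 (adjusted p = 0.0326). RNO_CIRCpedia_10110_16_18 exceeded background in the 4 BHD samples only. Its mean there was at least 1.26-fold that in control, a bound with no allowance for the spread between arrays. The member entered the test only through the BHD arrays, so its call is not support for a rise. That call was lost with normexp (a change of 0.11, adjusted p = 0.17). RNO_CIRCpedia_8265_12_10 went from -5.09 ± 0.41 to -4.06 ± 0.22 (1.031 ± 0.227, adjusted p = 0.0182, and 0.0516 without BHD replicate 1). With normexp its rise was 0.227. RNO_CIRCpedia_9990_16_10 went from -4.93 ± 0.27 to -4.23 ± 0.27 (0.699 ± 0.198, adjusted p = 0.045), a call lost with normexp (0.136) and without any one control replicate, model replicate 1 or 3 or BHD replicate 1, 3 or 4 (0.05 to 0.117). The call was also lost with no filter on dim probes (0.0689) and with trend and robust variance (0.0615). For RNO_CIRCpedia_8265_12_10 the partner rclstr_32151_1060_9 passed without BHD replicate 2 (0.0336). RNO_CIRCpedia_562_16_16 was not called itself, but differed from its partner rclstr_17751_877_18 by 1.232 ± 0.320 (adjusted p = 0.034), a call lost without control replicate 2, 3 or 4 or any one BHD replicate (0.0561 to 0.0871). With normexp the difference was 0.450 and still called. The pair had the widest gap of the named pairs, -7.87 in control. It dropped out when both probes had to be well above background on every array. The call may therefore rest on signal near background, and it was not taken as support for a difference.

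In all, 69 of 444 pairs were called for a difference of changes between BHD and control (15.5%, against 9.87% of all overlapping pairs), 55 with the member higher relative to its partner. Pairs of 2 CIRCpedia probes were called in 14.3%, close to the share of member and partner pairs, and pairs of 2 rclstr probes in 4.28%. Leaving out BHD replicate 1 or BHD replicate 3 gave 44 called member and partner pairs, and leaving out BHD replicate 2 gave 48.

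The 6 members with the longest shared runs did not all follow their partners equally. RNO_CIRCpedia_2447_0_10 shares 48 bases with rclstr_24551_362_5. It lay at -1.15, -1.25, -1.12 and -1.10 in control, -1.24, -1.11, -1.12 and -1.08 in model, and -0.81, -1.09, -1.15 and -1.07 in BHD, with overlap throughout. The mean gap to the partner was -0.173, -0.174 and -0.157. RNO_CIRCpedia_9261_0_8 and rclstr_19276_1842_8 share 47 bases and kept a gap of -0.393, -0.423 and -0.415. RNO_CIRCpedia_1532_0_18 and rclstr_5429_1068_8 share 46 bases and were both lower in BHD than in control, by -0.343 ± 0.082 (limma adjusted p = 0.025) and -0.391 ± 0.093 (adjusted p = 0.0246). The member's call was lost without control replicate 1, 2 or 3 or BHD replicate 1 or 4 (0.0541 to 0.0676), and the partner's without control replicate 1, 3 or 4 or BHD replicate 1 or 4 (0.054 to 0.0682). With spike-in centring the member's call was lost as well (0.0672). RNO_CIRCpedia_394_0_20, with 49 bases, and RNO_CIRCpedia_2558_0_5, with 46, had no call for either probe or for the pair in the 3 comparisons. From control to model, however, the first changed by 0.141 and its partner rclstr_23858_1799_11 by -0.032. From model to BHD the second changed by 0.124 and its partner rclstr_3190_255_4 by 0.029. In pairs with 45 to 49 shared bases the median size of the difference was 0.048 and 0.036 in these 2 comparisons. The sixth, RNO_CIRCpedia_4226_0_8, was called against rclstr_8266_343_17 for a small difference in the change from model to BHD (0.123 ± 0.031, adjusted p = 0.0312).

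Pairs with longer runs moved more alike. With 45 to 49 shared bases (42 pairs) the changes of member and partner correlated across pairs at r = 0.87 for model minus control, 0.86 for BHD minus model and 0.93 for BHD minus control (Spearman's rho 0.88, 0.79 and 0.94). With 20 to 24 bases (94 pairs) r was 0.17, 0.04 and 0.09 and rho 0.39, 0.24 and 0.37. The probes of a pair share their arrays, and pairs can share a probe. For BHD minus model the median size of the difference of changes was 0.106, 0.132 and 0.126 for runs of 20 to 24, 25 to 29 and 30 to 34 bases, and 0.049 and 0.036 for runs of 35 to 44 and 45 to 49. Calls in the same order were 12 of 94, 17 of 97, 20 of 118, 4 of 93 and 1 of 42. Split pairs were called in 46 of 329 and shifted pairs in 8 of 115. By arm, 25 of 271 pairs sharing the left arm were called and 29 of 173 sharing the right. The left arm held 29 to 45 of the 60 bases, so the longest runs could lie only on it. Arm and run length were not tested apart.

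The signal gap moved with the divergence. To keep the gap apart from the arrays compared, it was taken from the group that each comparison leaves out. Against the model in BHD, pairs whose member was dimmer by over 2 units in control were called in 23 of 74, all with the member higher, and their median difference of changes was 0.250. Pairs with a member dimmer by 1 to 2 units were called in 14 of 76 and those dimmer by 0 to 1 in 10 of 184. Pairs with a brighter member were called in 7 of 110, and in 5 of these 7 the member was lower. Across 444 pairs the gap and the difference of changes correlated at r = -0.45, and at -0.42 for BHD minus control with the gap from the model, but at 0.01 for model minus control with the gap from BHD. The corresponding r for the GC difference of the 2 probes was -0.21, -0.18 and 0.01.

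The same was seen in the other overlapping pairs of the array. When each pair was read as the dimmer minus the brighter probe, the dimmer probe was relatively higher in BHD than in the model in 84.7% of the 85 member and partner pairs with a gap of 2 units or more. In pairs of 2 CIRCpedia probes it was higher in 90.1% of 171, and in pairs of 2 rclstr probes in 72.0% of 100. Where the gap was under 1 unit the shares were 49% of 261, 60.5% of 423 and 48.5% of 813. For the wide-gap member and partner pairs the median was 0.239, with 23 of 85 called, all in that direction. It was 0.121 with normexp (25 called, 24 in that direction), 0.222 without BHD replicate 2 (20 called) and 0.216 among probes well above background on all 12 arrays (22 of 77 called). Between model and control the wide-gap pairs had a median of -0.011 and 1 of 81 was called. BHD arrays are the only ones on slide 2, and the part of slide or of the gap in the differences between members and partners was not tested.

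The 13 members with a partner on each arm allow both arms to be read at once. The 2 tests of such a member share its values, so they are not independent. From model to BHD, 3 of them were called against both partners: RNO_CIRCpedia_5686_16_14, RNO_CIRCpedia_6524_16_6 and RNO_CIRCpedia_9600_16_5, the latter 2 named after their values were seen. The first of these entered the test only through control and BHD arrays, as said above. RNO_CIRCpedia_6524_16_6 lay at -1.75, -1.53, -1.70 and -1.70 in control, -1.88, -1.69, -1.51 and -1.58 in model, and -1.38, -1.22, -1.24 and -1.01 in BHD, where every array was highest. It differed in its change from model to BHD from the right-arm partner rclstr_9491_1512_12 by 0.457 (limma adjusted p = 0.0199) and from the left-arm partner rclstr_9272_3075_11 by 0.575 (adjusted p = 0.00105). It was also dimmer than both, at -1.67 in control against -0.37 and 1.86. RNO_CIRCpedia_9600_16_5 differed from its partners by 0.163 and 0.248 (adjusted p = 0.00864 and 0.0312). The member itself changed by 0.046, and the partners by -0.117 and -0.202. In contrast RNO_CIRCpedia_7660_10_7, also chosen after its values were seen, moved from model to BHD by 0.550 with partners at 0.578 and 0.574, none of which passed the test (adjusted p = 0.206, 0.225 and 0.186). Its BHD arrays spread from -0.70 to 0.29, with BHD replicate 2 lowest. From control to model only RNO_CIRCpedia_5686_16_14 was called against both partners, and from control to BHD only RNO_CIRCpedia_6524_16_6. Called against 1 partner only were 1 member from model to BHD and 3 from control to BHD. Over the 13 members the 2 partners changed in the same direction in 11 from model to BHD and in 10 in each of the other comparisons.

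The St3gal5 pair had no call. RNO_CIRCpedia_9823_15_17 lay at 0.78 ± 0.03, 0.82 ± 0.05 and 0.69 ± 0.06 (SD, n = 4) in control, model and BHD, and rclstr_47374_380_22 at 0.73 ± 0.03, 0.73 ± 0.07 and 0.68 ± 0.10. Their difference of changes was between -0.078 and 0.043 in the 3 comparisons and passed no test.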

How the data were processed

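Total RNA was labelled with Cy3 and hybridised to 12 one-colour Agilent arrays. The deposited scanner files hold each spot's intensity, both as measured with its local background and after background subtraction by Agilent Feature Extraction 10.7.1.1, per the file headers. Other deposited columns are 0 or 1 flags (above background, outlier, saturated), per the file headers. The deposited value table holds log2 values made by the authors, and its scale and centring are not given in the sources used here; it was used as an alternative.

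Control and outlier spots were left out. Background-subtracted intensity was taken to log2 and averaged over repeat spots, and the 75th percentile of the array was subtracted. Shared runs were found by exact string matching. Single probes and within-array differences of overlapping probe pairs were fitted in R 4.3.3 with lmFit and eBayes of limma 3.58.1, with 1 mean per group over all 12 arrays. P-values were adjusted by Benjamini-Hochberg over all 44719 tested probes or all 2259 tested pairs, and a call is an adjusted p under 0.05. Both fits were tested on simulated data. Where a probe was well above background on no array of a group, its fold is a bound on the ratio of group means. It makes no allowance for the spread between arrays.

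Samples were grouped by title. Biological replicates are named in the labels of 10 samples but not linked to animals, and all BHD descriptions carry the number 4, so the p-values reflect only how these samples vary. The number of arrays limits the precision. Named probes were the 6 members with the longest run, the 8 largest changes among called members and the 6 largest differences among called pairs of each comparison; others are said to be chosen after seeing values. One named pair is counted but not reported here. Members and lists were chosen with earlier results of these data known. Alternatives were quantile normalization, a percentile over probes detected on all arrays, normexp (offset 50), the deposited table, other filters and variance models, a fit of 2 groups, a replicate block, a run of at least 30 bases, the longest partner only and each sample left out. Spike-in centring and a count over bright probes only were added after seeing the data. No tissue or cell type marker was checked, since no table used here names genes for the probes.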

Additional observations from a re-analysis of the deposited data

Results flagged for a closer look

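In 7 of 138 groups of 4 levels (46 named probes in 3 groups) 1 array lay far from the other 3, and chance gives about 1 in 20. For RNO_CIRCpedia_5686_16_14 control replicate 1 was the lowest at -4.74, with the next at -4.05. For RNO_CIRCpedia_3147_16_14 model replicate 4 was the lowest at -1.40, with the next at -0.98. Model replicate 4 was also the lowest for RNO_CIRCpedia_3631_10_6, at -0.99 (next -0.72), and for its partner rclstr_40660_516_7, at -1.86 (next -1.48). In the same partner BHD replicate 1 was the lowest of its group at -2.13 (next -1.99). For rclstr_11929_2720_8 model replicate 3 was the highest at -0.01 (next -0.41). For rclstr_2062_3047_27 BHD replicate 2 was the highest at -1.08 (next -1.30).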

How the results depend on the processing

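Model minus control had 0 called members by limma (59 at unadjusted p under 0.05). There were 2 with quantile normalization and with the deposited values, 1 with the strict filter (well above background on all 12 arrays), 1 with trend and robust variance and 15 with spike-in centring. Leaving out 1 sample gave 0 to 1. Its 2 called pairs became 0 with normexp, with the strict filter, with only bright probes counted and in a fit of only those groups, and 1 with runs of at least 30 bases and with the longest partner only. Leaving out 1 sample gave 0 to 2. BHD minus model had 20 called members: 9 in the fit of those groups, 12 with the replicate block and 11 with runs of at least 30 bases (8 to 22 with 1 sample left out). Its 54 called pairs were 83 with normexp and 25 with runs of at least 30 bases (39 to 57). BHD minus control had 55 called members, and 33 with runs of at least 30 bases (29 to 63). Its 69 called pairs were 29 with such runs (44 to 66). Fewer members enter with the longer run. For the other moves the cause was not tested.

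With the replicate block the counts of called members were 0, 12 and 42 and those of called pairs 3, 47 and 63. Deviations of same-numbered samples from their group means correlated at -0.194 to 0.243, with both signs between model and BHD as well, so the numbers were not taken to pair the samples. The number is also the array's column on its slide. With the block the calls of RNO_CIRCpedia_6742_16_11 (limma adjusted p = 0.0693) and RNO_CIRCpedia_8516_16_6 (0.086) for BHD minus model and of RNO_CIRCpedia_9990_16_10 (0.0608) and rclstr_5429_1068_8 (0.053) for BHD minus control were lost. So were those of the pairs of RNO_CIRCpedia_6341_16_14 for BHD minus model (0.0659) and RNO_CIRCpedia_8516_16_6 for BHD minus control (0.0756), and rclstr_36757_992_25 gained one for BHD minus model (0.0249). Among the settings run for named probes and pairs no call changed sign. Counted once per value and setting, a call was lost in 109 cases, gained in 10 and neither in 1669. Signals close to background limit the dim members, whose changes normexp shrinks.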
